A study of Mus musculus with 60 samples.

Results

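The distal and proximal pieces of the upper jaw (maxilla) of the mouse embryo were compared at embryonic day E13.5. The comparison takes the 3 arrays labelled distal maxilla and the 3 labelled proximal maxilla at that age, 6 of the 60 arrays of the series, and every gene that could be named, 18193 in all. Samples were chosen by their labels alone. Both groups are C57Bl/6 embryos with no treatment or allele named, both were run in the batch labelled 2, and 3 micrograms of total RNA went into each array. The whole series has 20 groups of 3 arrays, which cover a distal and a proximal piece of each jaw at daily steps between E10.5 and E14.5. A further label calls the tissue distal or proximal bone, and the sources used here do not say where the pieces were cut, which organs were left on them, or whether an array stands for 1 embryo or a pool. The p-values below rest on the spread between arrays of the same group, estimated over all 60 arrays. Whether that includes the spread between embryos is therefore not known.

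The maxilla grows from a paired prominence of neural crest mesenchyme covered by ectoderm. The mesenchyme makes the palate shelves, the tooth germs and membrane bone, and the epithelium makes the skin, whisker follicles, oral lining and enamel organs. Near its root lie structures of other origin: the trigeminal ganglion, whose sensory neurons send axons into the whisker pad, the cartilage capsules of the skull base, the pituitary and the inner ear. Homeobox genes of the Alx, Msx, Lhx and Pax families are known to mark the outer, facial end of the prominence. Wnt, hedgehog, Bmp and Fgf signals pass between epithelium and mesenchyme as whiskers, teeth and palate form.

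Levels are on the log2 scale, where 1 unit means a doubling of the array signal. Differences are given as distal minus proximal. A gene was called at an adjusted p under 0.05 in the limma fit. The presence limit was set at 4.78, since on every array at least 25% of the probe sets read no higher than this. A group mean that does not exceed it does not show that the gene was present. A fold that includes such a group was computed against 4.78 and is given as "at least". Arrays of the same piece correlated at 0.997 to 0.998 over genes, and arrays of different pieces at 0.992 to 0.993. Xist read 11.13 to 11.67 and the Y-linked Uty 6.76 to 7.55 on the 6 arrays, so each array carried signal of both kinds. A pool of female and male embryos would give this, and whether the arrays were pools was not tested. Neither gene differed between the pieces beyond the fit's error.

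In all, 2858 genes (15.7%) were called, 982 (5.4%) higher and 1876 (10.3%) lower in the distal piece. The counts of called list members given below are to be read against these shares. The balance of directions among small differences depended on the scaling. With quantile normalization repeated it was 1814 higher and 1667 lower, and with each array centred on its median it was 2687 and 1284. The large differences leaned one way under each of these scalings. Of 315 genes (1.73%) that were called and differed at least 2-fold, 39 (0.214%) were higher distally and 276 (1.52%) lower, and the split was 50 against 263 and 51 against 246 under the other scalings. The 3 distal arrays lay wholly above or below the 3 proximal arrays for 6497 genes (35.7%).

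**Figure D1:**
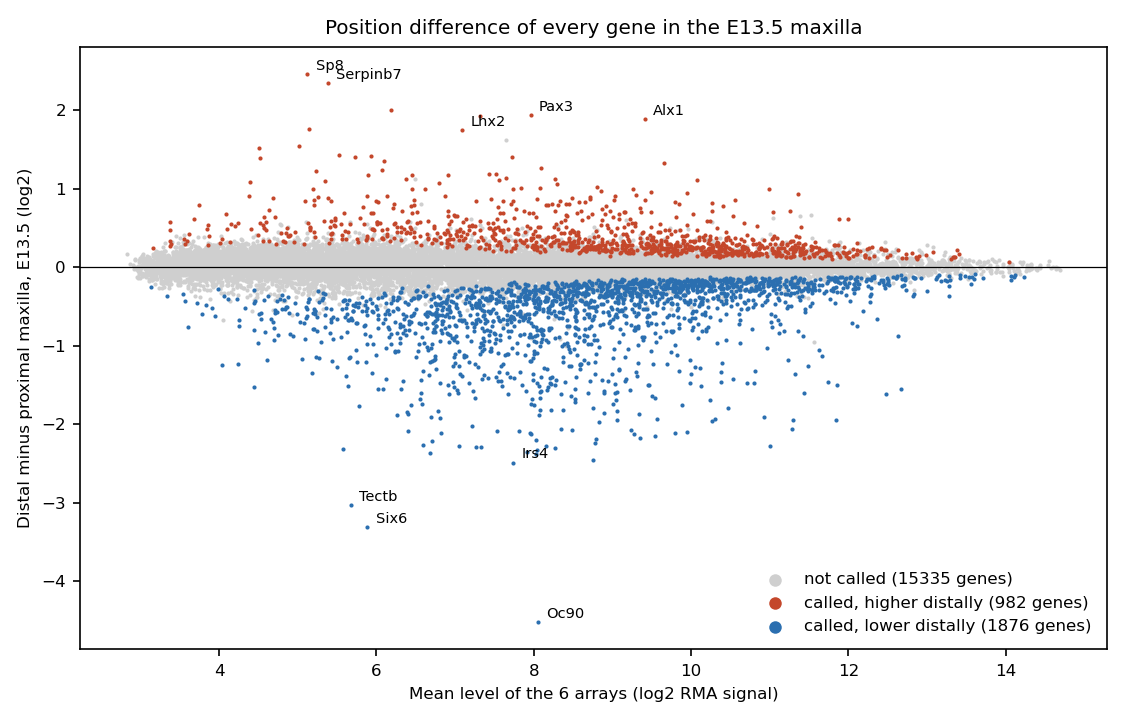
Distal minus proximal difference (log2) of each of the 18193 genes against the mean level of the 6 arrays (log2 RMA signal), with called genes in red (982 higher distally) and blue (1876 lower distally). The lower side reaches -4.52 (Oc90), the upper side 2.46 (Sp8).

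The genes with the largest distal excess included transcription factors of the facial and nasal region. Sp8, a zinc-finger factor of growing limb, nasal and brain ectoderm, read 6.71, 5.92 and 6.41 on the distal arrays and 3.98, 3.61 and 4.08 on the proximal arrays. The proximal values are under the presence limit, and Sp8 was at least 2.97-fold higher distally (adjusted p = 2.69e-11). Pax3, a paired-box factor of cranial neural crest, read 8.95, 8.90 and 8.93 distally and 6.96, 6.94 and 7.08 proximally, a difference of 1.94 (SE 0.146, adjusted p = 8.9e-15) that all 3 of its probe sets showed. Alx1, an aristaless-type homeobox factor needed for the midface, read 10.42, 10.32 and 10.33 against 8.56, 8.51 and 8.33 (difference 1.89, SE 0.26, adjusted p = 1.38e-07). Lhx2, a LIM homeobox factor of eye, forebrain and hair follicle stem cells, read 8.06, 7.87 and 7.97 against 6.21, 6.33 and 6.09 (difference 1.75, adjusted p = 1.22e-09). The pieces did not overlap in any of these genes, which the rule for naming them required.

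The other distal genes of the named set were mostly epithelial. Elf5, an Ets factor of differentiating epithelia, read 8.26, 8.23 and 8.37 distally and 6.60, 6.26 and 6.21 proximally (difference 1.93, SE 0.179, adjusted p = 4.29e-12). The serine protease inhibitors Serpinb7 and Serpinb11, known from upper epidermal layers, were at least 3.42-fold and 2.38-fold higher distally, with the proximal means of both under the presence limit. Dmkn (1.42), Tfap2c (1.41), which encodes an AP-2 factor of surface ectoderm, and the desmosomal cadherin gene Dsc3 (1.27) belong to the same tissue. Atp8b4 (2.01), Hpse2 (1.43), the nasal and forebrain factor Fezf1 (1.41), Olig1 (1.36) and the keratan sulphate proteoglycan gene Kera (1.33) complete the 15 largest. Only 1 of the 2 probe sets of Atp8b4, Elf5 and Dsc3 was called.

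The promoters of Sp8 and Elf5 are shown because these are the named distal genes whose start regions hold a motif that was searched. The windows run 250 bases up to an annotated start, from RefSeq on build GRCm38.p6, plus strand, and the match is in capitals. It is TAATTA, the core bound by many homeodomain factors, or ATCAAAG, the reverse complement of the TCF/LEF motif CTTTGAT. Sp8 has 3 annotated windows and Elf5 2, and for each gene only the window shown holds its match. Sp8 lies at chr12:118847309-118847558, with the match starting 188 bases before the start. Elf5 lies at chr2:103423818-103424067, with the match 52 bases before the start.
Sp8: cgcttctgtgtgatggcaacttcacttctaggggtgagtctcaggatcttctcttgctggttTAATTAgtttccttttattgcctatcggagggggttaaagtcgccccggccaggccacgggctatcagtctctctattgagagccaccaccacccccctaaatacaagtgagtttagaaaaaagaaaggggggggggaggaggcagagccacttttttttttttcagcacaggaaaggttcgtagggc
Elf5: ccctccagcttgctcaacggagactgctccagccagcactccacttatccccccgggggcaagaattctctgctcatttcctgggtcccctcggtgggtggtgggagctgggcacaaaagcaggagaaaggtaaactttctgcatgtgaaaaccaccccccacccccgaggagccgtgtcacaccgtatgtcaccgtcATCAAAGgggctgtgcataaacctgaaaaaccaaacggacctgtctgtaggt
Of the 15 named higher genes 10 had a promoter in the table, and of the 15 lower genes 13 had. TAATTA, on either strand, was in 1 of 10 (10%) and 0 of 13 against 6.12% of the 27025 genes with a promoter, and CTTTGAT was in 1 of 10 (10%) and 0 of 13 against 4.29%. The windows searched were 300 bases long. These shares are a description only, and the letters do not show a bound site.

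Among regulators of facial mesenchyme, 10 of 17 measured genes were higher distally and 2 lower, with a median of 0.60 against 0.01 over all genes. Msx1, a homeobox gene needed for palate and teeth, read 10.64, 10.59 and 10.66 distally and 9.50, 9.55 and 9.51 proximally (difference 1.11, SE 0.225, adjusted p = 0.000186). Its relative Msx2 ran the other way, at 8.10, 7.85 and 7.88 against 9.22, 9.29 and 9.18 (difference -1.29, SE 0.225, adjusted p = 1.69e-05), with 1 of its 2 probe sets called. So within one gene family the pieces were ranked in opposite order. Pax7 (1.01), Lhx8 (0.94), Tfap2b (0.89), Lhx6 (0.80), Pax9 (0.69) and Tfap2a (0.60) were higher distally. Hand2, the determinant of lower jaw identity, was slightly lower distally (-0.56). Prrx1 (0.08, called after median centring), Gsc (0.09) and Bmp4 (0.24) did not pass.

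Of 19 palate regulators, 6 were higher distally and 2 lower, beside 5.4% and 10.3% of all genes. Tbx22, a T-box gene of the posterior palate mutated in cleft palate, read 8.21, 8.13 and 8.02 against 7.05, 7.07 and 6.89 (difference 1.11, SE 0.219, adjusted p = 0.000125). Foxf1 (0.87) and Foxl2 (0.81), forkhead factors, and the T-box genes Tbx2 (0.46) and Tbx3 (0.32) were also higher. Zic1 was lower distally (-1.49, adjusted p = 0.00589), and the other Zic factors called, Zic2 (-2.27) and Zic5 (-2.09), were lower too. Shox2, an anterior palate factor, read 11.36, 11.34 and 11.36 against 10.71, 10.76 and 10.70, yet its adjusted p was 0.0605 in the fit over all arrays, and it was called after either rescaling. The count depended on which arrays estimated the spread: fitted on the 6 arrays alone, 16 of the 19 were called, 12 higher and 4 lower. That fit also called more of all genes, 4008 against 2858. Foxf2, lower distally by -0.47, was not called after either rescaling.

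**Figure D2:**
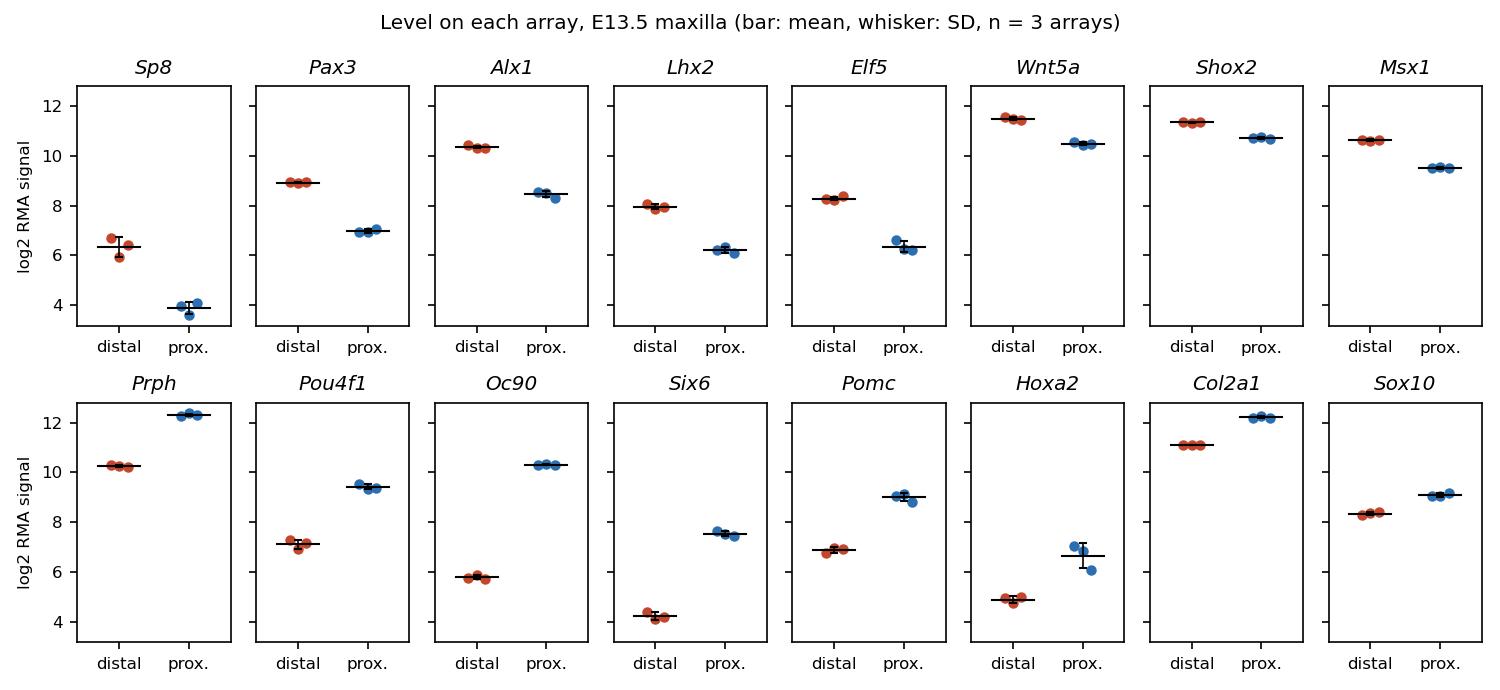
Level of 16 genes on each of the 6 E13.5 maxilla arrays (log2 RMA signal; points are arrays, bars the mean, whiskers the SD, n = 3). The 3 distal and 3 proximal arrays are apart for each gene shown, and Shox2 is the gene among them that was not called (adjusted p = 0.0605).

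Genes of surface epithelium and epidermis were higher distally as a group, while the gland epithelium list had 0 of 9 higher and 1 lower. Of 21 measured markers of surface epithelium 16 were higher and 1 lower, with a median of 0.61. Trp63, the master regulator of stratified epithelium, read 10.07, 9.92 and 9.92 distally and 9.14, 8.93 and 8.94 proximally (difference 0.96, SE 0.1, adjusted p = 1.16e-10), with 1 of its 4 probe sets called. The basal keratin genes Krt5 (0.84) and Krt14 (0.86) and the desmosome genes Dsp (0.93), Pkp1 (0.97) and Perp (0.79) followed, while Cdh1 was 0.60 and Epcam 0.34 higher. The simple-epithelium keratin genes Krt8 (0.27, called after median centring) and Krt18 (0.25) did not pass, and the tight junction gene Cldn6 was lower (-0.40, not called after either rescaling). Of 17 genes of differentiating epidermis, a list drawn up after values were seen, 13 were higher and 0 lower, among them Krt1 (0.85), Krt10 (0.45) and Grhl1 (1.17). Loricrin (Lor, -0.07) and filaggrin (Flg, 0.03) of the outermost layer did not pass, and Flg was under the presence limit in both pieces.

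Genes of whisker placodes and tooth germs shared this direction. In the placode and follicle list 8 of 14 were higher and 0 lower, and in the tooth list 6 of 17 and 0. Sostdc1, a secreted Bmp and Wnt antagonist around placodes and enamel knots, read 10.68, 10.63 and 10.69 against 9.91, 9.89 and 9.75 (difference 0.82, SE 0.108, adjusted p = 5.61e-08). Krt17 (1.03), Dkk4 (0.77), Inhba (0.64), Fgf20 (0.53) and Bmp2 (0.48) were higher as well. Shh, which marks both placode and enamel knot, was 0.08 higher and did not pass, nor did Edar (0.28).

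Called Wnt genes were mostly higher distally. More of them were called higher after rescaling, but so were more of all genes. Those went from 982 to 1814 with repeated quantile normalization and to 2687 with median centring. The gain is therefore no check on the direction. Of 14 ligands 3 were higher and 0 lower. Wnt5a, a noncanonical ligand of outgrowing facial and limb buds, read 11.55, 11.47 and 11.46 against 10.55, 10.45 and 10.48 (difference 1.002, SE 0.15, adjusted p = 9.69e-07), with 3 of its 4 probe sets called, and Wnt4 (0.47) and Wnt9b (0.37) were smaller. Of 26 receptors, enhancers and inhibitors 8 were higher and 1 lower. The enhancer Rspo1 (0.81), the inhibitors Dkk1 (0.75), Frzb (0.71) and Wif1 (0.71) and the receptor Lgr6 (0.67) were higher, and the inhibitor Sfrp1 was lower (-0.54). Of 9 target genes 6 were higher and 0 lower, with a median of 0.32: Apcdd1 (0.61), Sp5 (0.47), Rnf43 (0.42), Lef1 (0.41), Znrf3 (0.33) and Axin2 (0.33). Rnf43 was lost with repeated quantile normalization.

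Other signalling lists were examined in the same way, beside 5.4% of all genes called higher and 10.3% lower. Members gained after rescaling are again no check on the direction. In the hedgehog list of 13 genes, with a median of 0.19, the transcription factors Gli1 (0.27), Gli2 (0.21) and Gli3 (0.28), the co-receptor Gas1 (0.22) and the target Foxf1 were higher, while Foxf2 was lower and Ptch1 (0.21) passed only after either rescaling. In the Bmp list 1 of 20 was higher (Bmp2) and 2 lower, Bmp5 (-0.57) and the target Id1 (-0.29). This share is near the 15.7% called over all genes and does not set the list apart. After median centring 4 were higher, with Smad6, Bmp7 and Bmpr1a added. In the Fgf list 4 of 19 were higher, with the ligands Fgf10 (0.49) and Fgf20 and the feedback inhibitors Il17rd (0.26) and Dusp6 (0.19), and 2 lower, Fgf18 (-0.51) and Etv5 (-0.37). With repeated quantile normalization 7 were higher and with median centring 8. Of 13 retinoic acid genes the degrading enzyme gene Cyp26a1 alone was called, at 7.03, 6.91 and 7.15 against 7.86, 7.87 and 7.82 (difference -0.82, SE 0.138, adjusted p = 1.05e-05), and its relative Cyp26b1 was called higher only after either rescaling. Of 15 Notch genes 0 were called in the limma fit, though 3, Lfng, Jag1 and Notch3, were called higher after median centring.

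Proliferation genes showed a small and even distal excess. Of 19 cell cycle genes 17 were higher and 0 lower, with a median of 0.24 and a range of 0.11 to 0.41. Mki67, the proliferation antigen, read 12.11, 12.09 and 12.04 against 11.83, 11.84 and 11.80 (difference 0.25, SE 0.0677, adjusted p = 0.00542), and the mitotic kinase genes Aurka (0.34) and Bub1 (0.41) had larger differences. After repeated quantile normalization 17 and after median centring 19 were higher. Both rescalings raised the list median, to 0.28 and 0.33, and the median of all genes, from 0.01 to 0.03 and 0.095. Since these shifts favour a distal excess, the counts are no check on the direction of such small differences.

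Skeletal tissues were split. Of 20 cartilage genes 15 were lower distally and 0 higher, with a median of -0.87. Col2a1, the main cartilage collagen, read 11.09, 11.10 and 11.10 distally and 12.19, 12.28 and 12.21 proximally (difference -1.13, SE 0.221, adjusted p = 0.000116). The matrix genes Matn4 (-1.47), Epyc (-1.45), Matn1 (-1.42) and Col9a3 (-1.33) had larger differences than the regulator Sox9 (-0.53), and Sox6 (0.04) did not pass. After repeated quantile normalization 14 and after median centring 12 of the 20 stayed lower. Of 13 bone genes 4 were higher and 0 lower: Alpl (1.02), the osteoblast factor Sp7 (0.89), Ifitm5 (0.69) and Pth1r (0.30). Sp7 read 9.004, 9.28 and 9.20 against 8.30, 8.26 and 8.25, so it was read in both pieces. The collagen genes Col1a1 (0.06) and Col1a2 (-0.03) did not pass. Whether the pieces held bone, as the tissue label says, was not tested. Of 11 osteoclast genes, a list drawn up after values were seen, 5 were higher, including Tnfsf11 (1.18), the osteoclast-inducing ligand, and the resorption enzyme genes Mmp9 (0.998) and Acp5 (0.92), while Ctsk (-0.05) did not pass.

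Neuron genes made up the broadest proximal group. All 18 measured sensory neuron markers were lower distally, from -2.46 to -0.80 with a median of -1.90, and the pieces did not overlap for any of them. Prph, the peripherin filament of peripheral neurons, read 10.31, 10.24 and 10.21 distally and 12.27, 12.37 and 12.29 proximally (difference -2.06, SE 0.231, adjusted p = 9.37e-10), though only 1 of its 4 probe sets was called. The sensory neuron factors Pou4f1, at 7.28, 6.90 and 7.16 against 9.54, 9.35 and 9.37 (difference -2.31, SE 0.301, adjusted p = 4.22e-08), Prrxl1 (-2.46) and Isl1 (-1.91) were nearly as far apart. In whole tissue, fewer neurons and less RNA per neuron cannot be told apart.

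Partner lists ran the same way with smaller differences. Of 19 genes of synapses and transmitter release 13 were lower and 0 higher, led by Snap25 (-2.12) and the glutamate transporter gene Slc17a6 (-2.06), while the GABA genes Gad1 (-0.01), Gad2 (0.15) and Slc32a1 (0.10) did not pass. Of 8 Schwann cell and glia genes 5 were lower, with Fabp7 (-1.50), S100b (-0.99) and Sox10 (-0.75), and Erbb3 (-0.19) and Mbp (-0.16) did not pass. Among neurotrophic genes the receptors Ret (-2.18), Ngfr (-1.15), Gfra3 (-0.85), Ntrk3 (-0.62) and Ntrk2 (-0.44) were lower, and the ligand gene Ntf5 was higher (0.35), while Bdnf (-0.22) and Gdnf (0.27) did not pass. Axon guidance genes were mixed: 7 of 27 were higher, including the repellents Sema3d (0.65) and Sema3a (0.30) and the receptor Nrp2 (0.34), and 3 were lower. After either rescaling 11 were higher.

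A list of autonomic and neurosecretory genes, drawn up after values were seen, had 13 of 20 lower and 0 higher, or 10 lower after median centring. The secretory granule genes Chgb (-2.35), Chga (-2.27), Resp18 (-2.37) and Scg5 (-2.08), the neuropeptide gene Gal (-2.11) and Th (-2.21), which encodes the first enzyme of catecholamine synthesis, were lower. Th read 6.98, 6.99 and 6.80 distally and 9.07, 8.998 and 9.32 proximally. Dbh (0.25, called higher with repeated quantile normalization), the next enzyme toward noradrenaline, and the noradrenaline transporter gene Slc6a2 (0.16) did not pass. Of the probe sets of Irs4, Cpne4 and Rims3 1 of 2 was called lower, and of Tlcd3b 3 of 4. The named proximal genes Tlcd3b (-2.33), Cpne4 (-2.29), Rims3 (-2.29), Scn7a (-2.28) and Sncg (-2.27) were of similar size, and Cyp4x1, under the presence limit distally, was at least 3.88-fold lower.

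**Figure D3:**
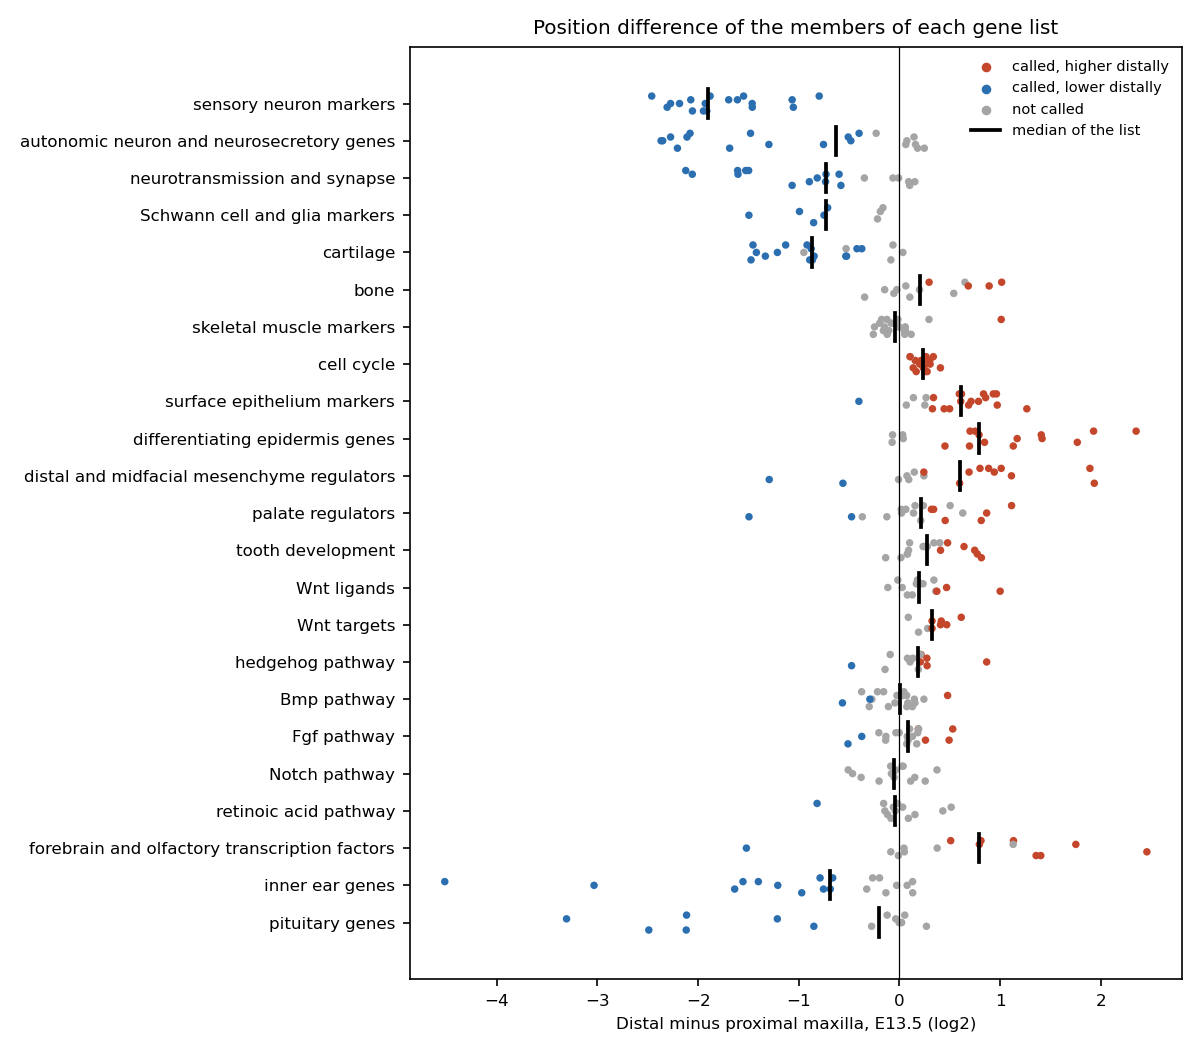
Distal minus proximal difference (log2) of the members of 23 gene lists at E13.5 (points: genes, coloured by call; bar: median of the list). Neuron, cartilage, inner ear and pituitary lists reach to the left, with medians of -1.90 (sensory neurons) and -0.87 (cartilage). The surface epithelium (0.61) and epidermis lists lie to the right.

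The largest single difference was in an inner ear gene. Oc90, which encodes the core protein of the ear's calcium carbonate crystals, read 5.76, 5.89 and 5.73 distally and 10.31, 10.33 and 10.28 proximally (difference -4.52, 22.9-fold, SE 0.237, adjusted p = 5.92e-20). Tectb, a tectorial membrane gene, was at least 5.32-fold lower distally, where its mean was under the presence limit. In a list of ear genes drawn up after these were seen, 11 of 19 were lower and 0 higher, with Tecta (-1.55), Ecrg4 (-1.64), Fbxo2 (-1.40) and Coch (-1.21). The hair cell genes Atoh1 (-0.20), Gfi1 (0.08) and Espn (0.13) did not pass, the last 2 being under the presence limit in both pieces.

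Pituitary genes were also proximal. Six6, a homeobox gene of eye and pituitary, read 4.39, 4.11 and 4.19 distally and 7.64, 7.53 and 7.44 proximally, at least 6.76-fold lower distally (adjusted p = 9.39e-10). Pomc, the precursor of ACTH, read 6.75, 6.98 and 6.93 against 9.05, 9.14 and 8.83 (difference -2.12, SE 0.0935, adjusted p = 6.55e-23). Irs4 (-2.49), the glycoprotein hormone subunit gene Cga (-2.11), the pituitary regulator Lhx3 (-1.21) and Tshb (-0.85) were lower too. In this list, drawn up after values were seen, 6 of 14 were lower and 0 higher, and Gh (0.00), Prl (0.05) and Tbx19 (0.02) did not pass. Of 16 eye and lens markers Six6 and Lhx2, in opposite directions, were those called, and Pax6 (0.18) and Cryaa (0.06) did not pass.

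In a list of forebrain and olfactory transcription factors, drawn up after values were seen, 8 of 15 were higher distally and 1 lower, Neurod6 (-1.52, under the presence limit distally). Beside Sp8, Lhx2, Olig1 and Fezf1, the list had Foxa1 (1.13), Dmrt3 (0.81), Dmrta2 (0.80) and Otx1 (0.51). Otx2 (1.13) had an adjusted p of 0.0912 and was called after median centring. The cortical neuron genes Tbr1 (-0.01) and Eomes (-0.09) did not pass, and Omp (0.11), the marker of mature olfactory neurons, did not either. In the list of nasal, olfactory and airway epithelium markers 2 of 14 were higher and 1 lower, with a median of 0.05. The lower gene was Ebf2 (-0.69), and Neurod1 (-0.999) was called lower only with repeated quantile normalization. The 2 called higher, Bpifa1 and Reg3g, were at most just above the presence limit distally, and their proximal means were under it. Bpifa1 read 5.31, 5.12 and 4.97 distally and Reg3g 4.84, 4.50 and 5.14.

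Over all genes 15.7% were called in either direction. The blood, vessel and muscle lists had a smaller share called in the limma fit, apart from the mast cell list. With so few members, these smaller shares do not set the lists apart. Of 14 endothelial markers 1 was called, Ramp2, which was lower. After median centring it was not called, and Kdr and Cdh5 were called higher. Of 9 red blood cell genes 0 were called and of 10 pericyte and smooth muscle genes 1. Of 10 mast cell genes 4 were higher: the proteases Cpa3, at 9.81, 9.82 and 9.90 against 9.09, 8.97 and 8.87 (0.86), and Cma1 (0.85), Gata2 (0.83) and Hdc (0.56), and Kit was lower (-0.34, not called after median centring). Of 14 macrophage genes 1 was higher and 1 lower, or 3 and 0 after median centring. Of 24 skeletal muscle genes the precursor factor Pax7, which also marks facial neural crest, was the only one called. The other 23 had differences from -0.26 to 0.29. On the 6 arrays alone 8 muscle genes were called, 2 higher and 6 lower, in a fit that called 4008 of all genes against 2858.

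The position difference was then set beside those at neighbouring ages, which use other arrays of the same batch. Of the 2858 genes called at E13.5, 2308 were also called at E12.5, 80.8% of this list and 32.5% of the 7097 (39%) called then, with the same sign in 2262. At E14.5 the shared calls were 2324, 81.3% of this list and 38% of 6123 (33.7%), with the same sign in 2308. Of the 315 genes with at least 2-fold differences, 284 were called with the same sign at E12.5 and 304 at E14.5. Those of opposite sign at E12.5 were Cga, Irs4, Dsc3 and Fstl5, and 0 were opposite at E14.5. These 4 are named because they are so few.

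The size of the difference changed more than its sign. The interaction with E12.5 was called for 3375 genes (18.6%), with 1334 (7.33%) more positive and 2041 (11.2%) more negative at E13.5, and that with E14.5 for 1290 (7.09%), 548 (3.01%) and 742 (4.08%). The latter balance turned to 730 and 542 with repeated quantile normalization and to 684 and 476 with median centring. Of 18 sensory neuron markers 17 had a smaller distal deficit at E13.5 than at E12.5 and 15 a smaller one than at E14.5, and the remaining members were not called. Their median difference was -1.90 at E13.5, beside -4.59 a day before and -4.33 a day after. Glia genes had 7 of 8 and 2 of 8 with a smaller deficit, and synapse genes 12 and 11 of 19.

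For the sensory neuron markers the change lay mainly in the distal piece. Contrasts of each piece between ages were added after these values were seen. Between E12.5 and E13.5, 35.5% of all genes were called in the distal and 35.9% in the proximal piece. In the distal piece 16 of the 18 neuron markers were higher at E13.5 than at E12.5, where 18.9% of all genes were, and 16 were higher than at E14.5, where 6.07% were. In the proximal piece 11 of 18 were lower at E13.5 than at E12.5, against 13.7% of all genes, and 0 were higher, against 22.2%, while 2 of 18 were lower than at E14.5, against 5.34%. The median distal change was 2.10 from E12.5 and that of E13.5 over E14.5 was 2.05, beside -0.76 and -0.21 in the proximal piece. Distal Prph was 5.53 ± 0.213 (SD, n = 3) at E12.5, rose to 10.26 ± 0.0487 at E13.5 and was 6.93 ± 0.081 by E14.5, while proximal Prph was 12.41 ± 0.0182, 12.31 ± 0.0548 and 12.80 ± 0.0346. Distal Isl1 was 6.95, 9.98 and 8.19 at the same ages and distal Sncg 6.49, 9.86 and 6.30. Markers of glia changed in both pieces. Distally 4 of 8 were higher at E13.5 than at E12.5 and 4 than at E14.5. Proximally 7 of 8 were lower and 1 higher than at E12.5, and 1 was lower than at E14.5. Synapse genes also changed in both pieces. Against E12.5, 10 of 19 were higher and 1 lower distally, and 8 were lower proximally. Against E14.5, 8 were higher distally and 8 lower proximally. Whether the pieces were cut alike at each age was not tested.

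**Figure D4:**
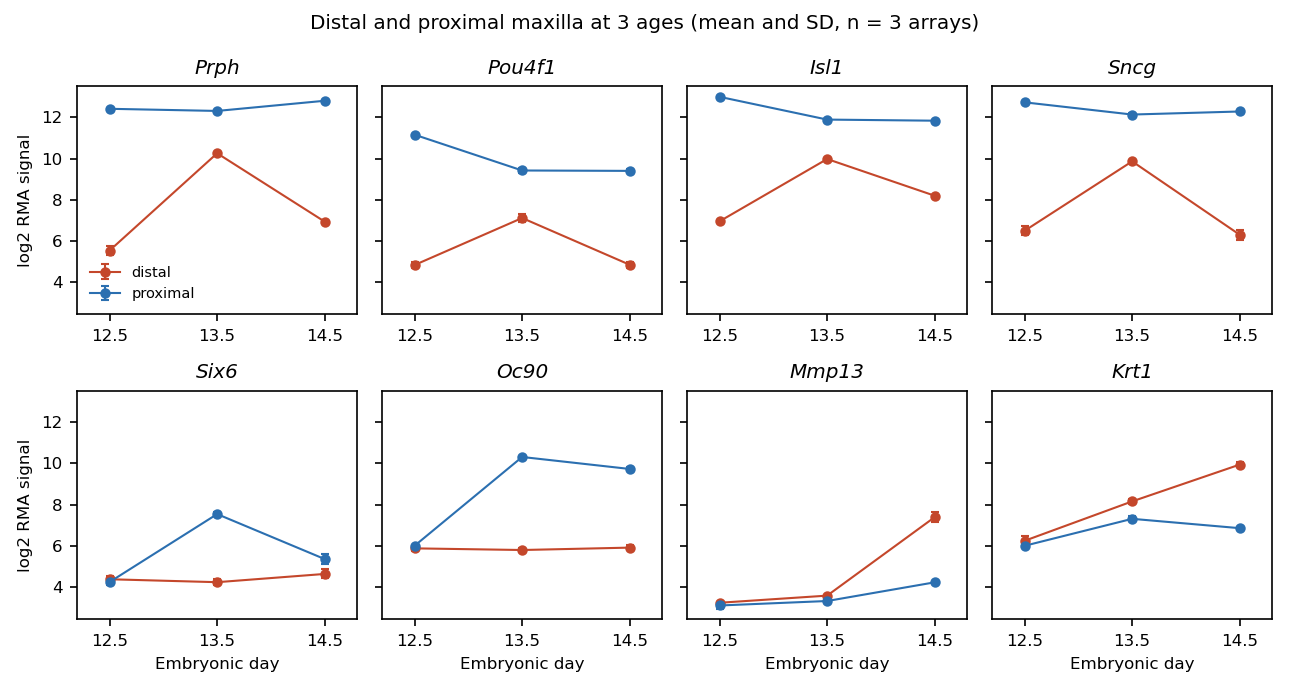
Distal and proximal maxilla levels of 8 genes at the 3 ages from E12.5 to E14.5 (log2 RMA signal, mean and SD, n = 3 arrays). Distal Prph peaks at 10.26 at E13.5, proximal Six6 at 7.54 and proximal Oc90 at 10.31 at the same age, while Mmp13 and Krt1 spread apart at E14.5.

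Several pituitary and ear genes followed another course. Oc90, Six6 and Pomc rose from E12.5 to E13.5 in the proximal piece (adjusted p = 1.04e-19, 3.96e-10 and 1.04e-22), and their distal changes were not called. Oc90 differed by -0.12, -4.52 and -3.82 at the 3 ages in turn, and proximal Oc90 was 6.00 ± 0.0127, 10.31 ± 0.025 and 9.73 ± 0.0901. Proximal Six6 was 4.24 ± 0.127, 7.54 ± 0.1 and 5.35 ± 0.259, and distal Six6 stayed between 4.23 and 4.63, under the presence limit at each age. Pomc differed by 0.09, -2.12 and -1.64. Cga and Irs4 were higher distally at E12.5 (0.91 and 0.97) and lower at E13.5, and both pieces changed. Distal Cga fell by 1.68 while proximal Cga rose by 1.34. Distal Irs4 fell by 1.43 while proximal Irs4 rose by 2.02. Hoxa2 was lower distally at E13.5 (-1.77), at 4.94, 4.74 and 4.99 against 7.05, 6.85 and 6.08, and differed by -0.12 at E14.5 (interaction adjusted p = 0.0044).

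For epithelium, bone and palate the E13.5 difference stood between its neighbours or below both. Of 21 epithelial markers 15 had a larger distal excess at E14.5. Against E12.5, 8 had a smaller excess at E13.5 and 2 a larger one, and the median was 0.92 at E12.5 against 0.61. The course of single genes differed, and distal Krt1 was 6.24 ± 0.243, 8.15 ± 0.13 and 9.94 ± 0.126 at the 3 ages. Of 13 bone genes 4 had a larger excess at E14.5, and the mineralization gene Dmp1, which did not pass at E13.5 (-0.34), differed by 1.95 there. Of 19 palate genes 16 had a larger distal excess at E12.5. Tbx22 differed by 2.45, 1.11 and -0.36 from the first age to the last. Of 19 cell cycle genes 17 had a larger distal excess at E12.5, where the median was 0.52 against 0.24.

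The same positions in the lower jaw at E13.5 come from the batch labelled 1, so each position difference was taken within its own batch. Of the 2858 genes 1493 were also called in the mandible, 52.2% of this list and 32.4% of 4609 (25.3%), with the same sign in 1363 and the opposite sign in 130. The difference between the jaws was called for 2289 genes (12.6%), 1005 (5.52%) more positive in the maxilla and 1284 (7.06%) more negative. After median centring the balance turned to 1239 and 1065. Of 24 skeletal muscle genes all 24 were lower distally in the mandible, with a median of -1.96 against -0.04 in the maxilla, and the interaction was called for each of the 24. Cartilage genes had a median of -1.61 in the mandible against -0.87, with 12 of 20 interactions called.

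Several regional factors had position differences that differed between the jaws. Hand2 was 12.68 ± 0.131 in the distal and 9.40 ± 0.168 in the proximal mandible, but 7.14 ± 0.156 and 7.70 ± 0.0921 in the maxilla (interaction -3.84, SE 0.163, adjusted p = 1.36e-23). Alx1 differed by 5.35 in the mandible and 1.89 in the maxilla. Hoxa2 reached 9.49 ± 0.16 in the proximal mandible and was 4.39 ± 0.136 distally, and 8 of 10 Hox genes had a called interaction in this direction. Pax7 was higher distally in the maxilla and lower distally in the mandible (1.01 against -1.26), as was Foxa1 (1.13 against -0.97), and Msx2 was reversed (-1.29 against 0.62). Sensory neuron markers had nearly the same median in the 2 jaws, -1.90 and -1.87, with 6 of 18 interactions called. The ear genes were not particular to the maxilla. Oc90 differed by -4.52 in the mandible too, where its proximal arrays read 9.06, 10.67 and 11.25. There 11 of 19 ear genes were lower distally and 0 higher, with a median of -0.82. Sex-linked genes moved with the mandible pieces: Uty differed by 1.97 and Xist by -2.04 there, and their part in the interactions was not tested.

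**Figure D5:**
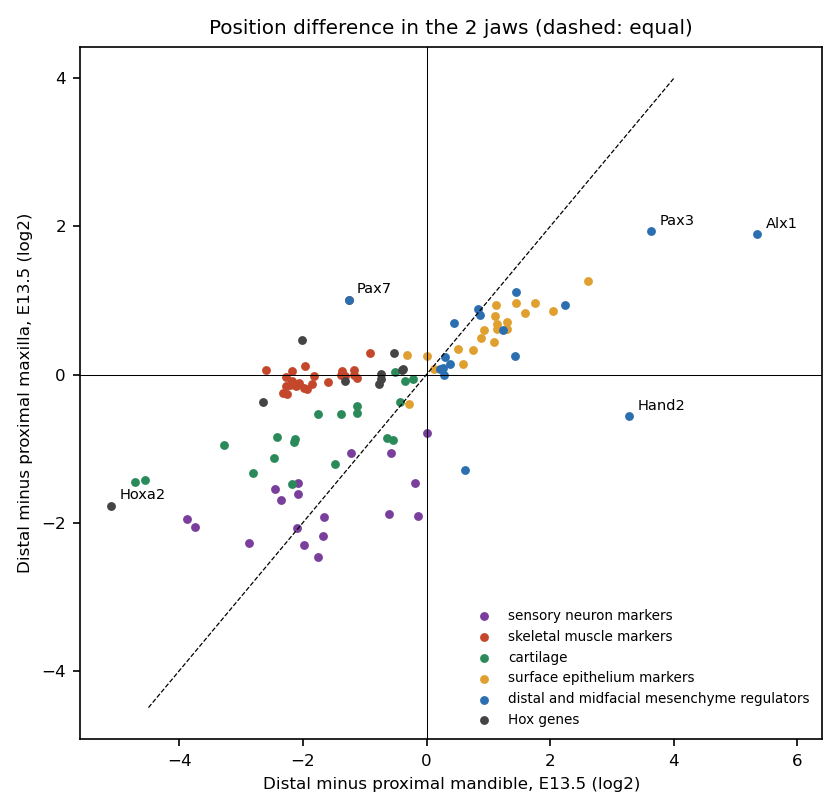
Distal minus proximal difference at E13.5 (log2) in the maxilla (vertical) against that in the mandible (horizontal) for the members of 6 gene lists, with the dashed line where both are equal. Muscle genes lie near 0 in the maxilla (median -0.04) and to the left in the mandible (median -1.96), and Hand2 and Alx1 lie far to the right.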

How the data were processed

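Gene expression arrays, each of 1 biotin-labelled sample per the labels, were read for 60 samples, and the position comparison uses 6. The authors deposited log2 values, and their processing notes name RMA without a version. They entered the fit unchanged (45101 probe sets, 64 of them controls). The platform annotation gave 34945 probe sets a single symbol, which left 18193 genes, each represented by its probe set of highest mean over all arrays. A further 932 probe sets carry more than 1 symbol and 9160 carry no symbol, and these were left out. No depth exists for arrays, and 3 arrays per group limit the precision.

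All 60 arrays entered one fit in limma 3.58.1 (R 4.3.3), with a mean per group, 40 residual degrees of freedom, eBayes with trend, two-sided tests and Benjamini-Hochberg adjustment over all genes. Position differences and their interactions with age or jaw were contrasts of this fit. An exact permutation test of 3 arrays against 3 cannot go below p = 0.1 and was not used. The fit was tested on simulated arrays.

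Members and lists were chosen with earlier results of these data known: 35 lists were written first and 7 added after values were seen, and no list was tested as a set. For position, the 15 called genes of largest difference in each direction were named if the higher mean reached log2 6, the pieces did not overlap, and the gene was no predicted model and not sex-linked. For each interaction 5 per direction were named. In lists up to 5 called and 3 not called genes were named by rule, and pathway members as needed. Genes outside these rules were chosen after their values were seen.
Alternatives were a repeated quantile normalization, median centring, leaving out dim genes (under log2 6), averaging all probe sets for each gene, fewer arrays, other eBayes settings, array weights, a replicate block, a 2-fold limit, and leaving out each array. Replicate numbers are shared by the pieces, but the correlations of same-numbered deviations (0.438, 0.103 and 0.0125) did not all exceed 0.1, so the main fit has no block.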

Additional observations from a re-analysis of the deposited data

Results flagged for a closer look

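The 3 interactions were each called for a minority of genes in the limma fit. For these genes the position difference of the E13.5 maxilla departed from that of a neighbour. They were 3375 genes (18.6%) against E12.5, 1290 (7.09%) against E14.5 and 2289 (12.6%) against the mandible. The genes below are those of largest interaction, and each value is the difference at E13.5 in the maxilla less that in the other comparison, on the log2 scale.

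Against E12.5 the neuronal genes Nhlh2 (5.03), Ppp1r17 (4.85), Prph (4.83), Neurod4 (4.73) and Ppp1r1c (4.55) were more positive, and Oc90 (-4.39), Irs4 (-3.46), Six6 (-3.44), Tectb (-3.14) and Cga (-3.03) more negative. Neurod4 was 8.54 ± 0.155 (SD, n = 3) in the proximal piece at E12.5 and 3.95 ± 0.183 at E13.5, under the presence limit of 4.78. Against E14.5 the neuronal genes Prph (3.81), Nefm (3.77), Sncg (3.71), Ret (3.00) and Nefl (2.98) were more positive. Mmp13 (-2.90), Six6 (-2.59), the dynein gene Dynlrb2 (-2.46), Dmp1 (-2.30) and Krt1 (-2.24) were more negative. Mmp13, a collagenase of bone, was under the presence limit in both pieces at E13.5 and 7.39 ± 0.259 in the distal piece at E14.5.

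Against the mandible Ttr (5.84), C1qtnf3 (5.42), the neuropeptide gene Crh (3.88), Zic1 (3.58) and Hoxa2 (3.33) were more positive, and Hand2 (-3.84), Alx1 (-3.46), Six6 (-3.33), Sfrp4 (-3.07) and Tmprss11a (-2.99) more negative. Ttr, a choroid plexus and liver transport protein, read 6.43, 11.98 and 13.31, from lowest to highest, on the 3 proximal mandible arrays. Its interaction ran from 4.47 to 7.91 as each of these was left out, and was 8.76 with its 4 probe sets averaged. The values of Neurod4, Ppp1r17, Tectb, Six6, Mmp13, Crh, Hoxa2 and Tmprss11a each include at least 1 group mean under the presence limit, so their size there is not a measured fold.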

How the results depend on the processing

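All 30 genes named for position kept their direction and stayed called under each of 17 alternatives (510 values). The named interaction genes did so in all 680 values run for them, which for the mandible do not include the fit on batch 2 alone, since the mandible arrays are of batch 1. Array quality weights, whose estimation stopped before convergence, raised the counts of called genes to 5433 for position, 6232 against E12.5, 4755 against E14.5 and 3763 against the mandible. For the interaction with E14.5 the count was 2173 on the arrays compared alone and 2504 on the 24 arrays of batch 2. The causes were not tested. Every other alternative left the 5 counts within 1.5 times of the values given. With one array left out, the count for position ran from 2216 to 2363, that with at least 2-fold differences from 308 to 340, and those of the interactions from 2726 to 3256 (E12.5), 898 to 1338 (E14.5) and 1829 to 2162 (mandible).

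Median centring moved the median difference of all genes from 0.01 to 0.095. It moved the share called higher from 34.4% to 67.7%, repeated quantile normalization moved it to 52.1%, and for E14.5 the shares went from 42.5% to 59% and 57.4%. With the replicate number as a fixed replicate block 2808 genes were called for position, and as a random block 2895, so pairing by number changed no count by over 1.5 times. Arrays give no counts, and the level of a gene under 4.78 limits what can be said of it.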
